A study of Mus musculus with 10 samples.

Results

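The genes examined here were 9 components and receptors of the complement system, taken by name from the count matrix, where all 9 were found among 31053 genes. They were C1qa, C1qb and C1qc, which encode the chains of C1q, C3 and C4b, which encode the components cleaved after C1q binds, C3ar1 and C5ar1, which encode the receptors of the cleavage fragments C3a and C5a, and Itgam and Itgb2, which encode the chains of complement receptor CR3. RNA of single CD45+ cells sorted from whole mouse brain was counted in 10 libraries, each made from 3 pooled mice (2 males and 1 female). Wild-type (WT) mice and mice without Nlrp3 in the whole body (Nlrp3KO) were taken at 3, 6 and 9 months, and APP/PS1 and Nlrp3KO APP/PS1 mice at 3 and 9 months. APP/PS1 mice carry mutant human transgenes, APP among them, driven by a neuronal Thy1 promoter, so that amyloid is deposited in the brain as they age, and non-diseased mice of the same litters do not. Cells of all groups were dissociated in the presence of actinomycin D, which blocks transcription. Because each genotype and age is 1 library, the spread between libraries includes both the spread between pools of mice and technical spread, and because all libraries of an age form 1 batch in the annotation, age and batch cannot be told apart.

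Complement is a cascade of secreted proteins that tags surfaces for removal. In the classical pathway C1q binds to antibodies, dying cells, synapses or amyloid and leads to cleavage of C4 and C3, whose fragments stay on the tagged surface, while the small fragments C3a and C5a act on receptors of myeloid cells. In the brain microglia are the main source of C1q, C3 and C4 are made to a large part by astrocytes and other cells that a CD45+ sort leaves out, and CR3 on microglia takes up C3-tagged synapses and debris.

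Of 45472 cells used, 40547 were annotated as microglia, with 1755 to 8208 per library, and microglia of a library held 9357431 to 35107144 unique molecular identifiers (UMIs, tags of single captured RNA molecules). Levels are given as CPM, the usual scaling of a gene's UMIs by all UMIs of the summed cells, which compares a gene between cells but not 1 gene with another. Summed counts cannot tell fewer cells with the RNA from less RNA per cell. Among the barcodes, 246 of 45225 occurred in more than 1 library. Nlrp3 was counted at 34.4 to 53.7 CPM in microglia of the 5 libraries with intact Nlrp3 and at 0 UMIs in those of the 5 Nlrp3KO libraries, where 3 counts would be 0.0855 to 0.321 CPM. Microglia held P2ry12 at 3183 CPM, Tmem119 at 1579 CPM and Sparc at 3127 CPM, whereas T cell, B cell and NK cell markers other than Cd79b (44.4 CPM) were at most 0.407 CPM, and 5 markers of border macrophages summed to 4.49 to 14.0 CPM per library. Cells labelled BAM and BAM Lyve1 carried border macrophage markers (Mrc1 at 554 and 2687 CPM, Lyve1 at 21.3 and 614 CPM), and BAM also held Ccr2, a monocyte gene, at 1115 CPM.

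The 3 C1q genes lie side by side on chromosome 4 of GRCm38.p6, with C1qb at chr4:136880126-136886200, C1qc at chr4:136889801-136892936 and C1qa at chr4:136895916-136898844. The bases before the transcription start of C1qb (chr4:136886201-136886450, minus strand) and of C1qc (chr4:136892915-136893164, minus strand), as given by RefSeq for GRCm38.p6, are printed here because both genes followed the same pattern over cell types. Capitals mark ACTTCCT, the opposite strand of AGGAAGT, a core that fits PU.1, the factor that defines myeloid cells.
C1qb: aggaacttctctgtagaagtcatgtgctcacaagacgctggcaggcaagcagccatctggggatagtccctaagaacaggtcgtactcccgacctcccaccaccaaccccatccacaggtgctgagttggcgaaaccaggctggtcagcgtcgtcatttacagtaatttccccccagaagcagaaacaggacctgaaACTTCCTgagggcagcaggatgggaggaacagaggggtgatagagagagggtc
C1qc: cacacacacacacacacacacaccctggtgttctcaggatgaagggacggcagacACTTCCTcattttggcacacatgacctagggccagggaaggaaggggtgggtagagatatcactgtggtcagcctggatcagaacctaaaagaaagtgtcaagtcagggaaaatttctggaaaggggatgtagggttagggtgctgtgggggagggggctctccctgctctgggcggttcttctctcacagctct
The start used for C1qc lies inside the outer bound of the gene, so that 22 of the bases printed for it fall within the gene as placed above. The match begins 53 bases before the start of C1qb and 195 bases before that of C1qc. Windows of 250 bases before to 50 after the start were searched on both strands, and the motifs were picked after several had been looked at. AGGAAGT occurred in 3 of the 6 members for which a window was given (C1qb, C1qc and C5ar1, not C3ar1, Itgam or C3) and in 9.35% of 32851 windows of all genes. Such a match is a string of letters and not a bound site. C1qa, C4b and Itgb2 were not among the windows.

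C1q RNA marked microglia and the macrophages of the brain borders. C1qa averaged 11016 ± 424 CPM in microglia (SD, n = 10 libraries), 9502 ± 746 CPM in BAM Lyve1 (n = 9 libraries with at least 20 such cells) and 6171 ± 812 CPM in BAM (n = 10). C1qb averaged 9754 ± 290, 7614 ± 639 and 5780 ± 651 CPM, and C1qc 7100 ± 179, 6060 ± 533 and 3562 ± 428 CPM in the same cells. For all 3 chains each of these steps exceeded the larger SD, and the ranges over libraries stayed apart except between microglia and BAM Lyve1 for C1qa and between BAM Lyve1 and BAM for C1qb. Among types with 3 or more libraries the next were NK cells, B cells, cDC2 and T cells. They averaged between 232 and 955 CPM for a chain, and no step between neighbours among them exceeded the larger SD. These levels and their order depended on cells of high doublet score. Summed over all libraries C1qa stood at 788 CPM in NK cells, 700 in B cells and 451 in cDC2. Over cells with a doublet score of at most 0.5 these values were 57.3, 104 and 247 CPM. Of NK cells, B cells, cDC2 and T cells, cDC2 was then highest for all 3 chains. It held C1qb at 414 and C1qc at 127 CPM, against 97.4 and 76.2 CPM in B cells, the next.

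**Figure D1:**
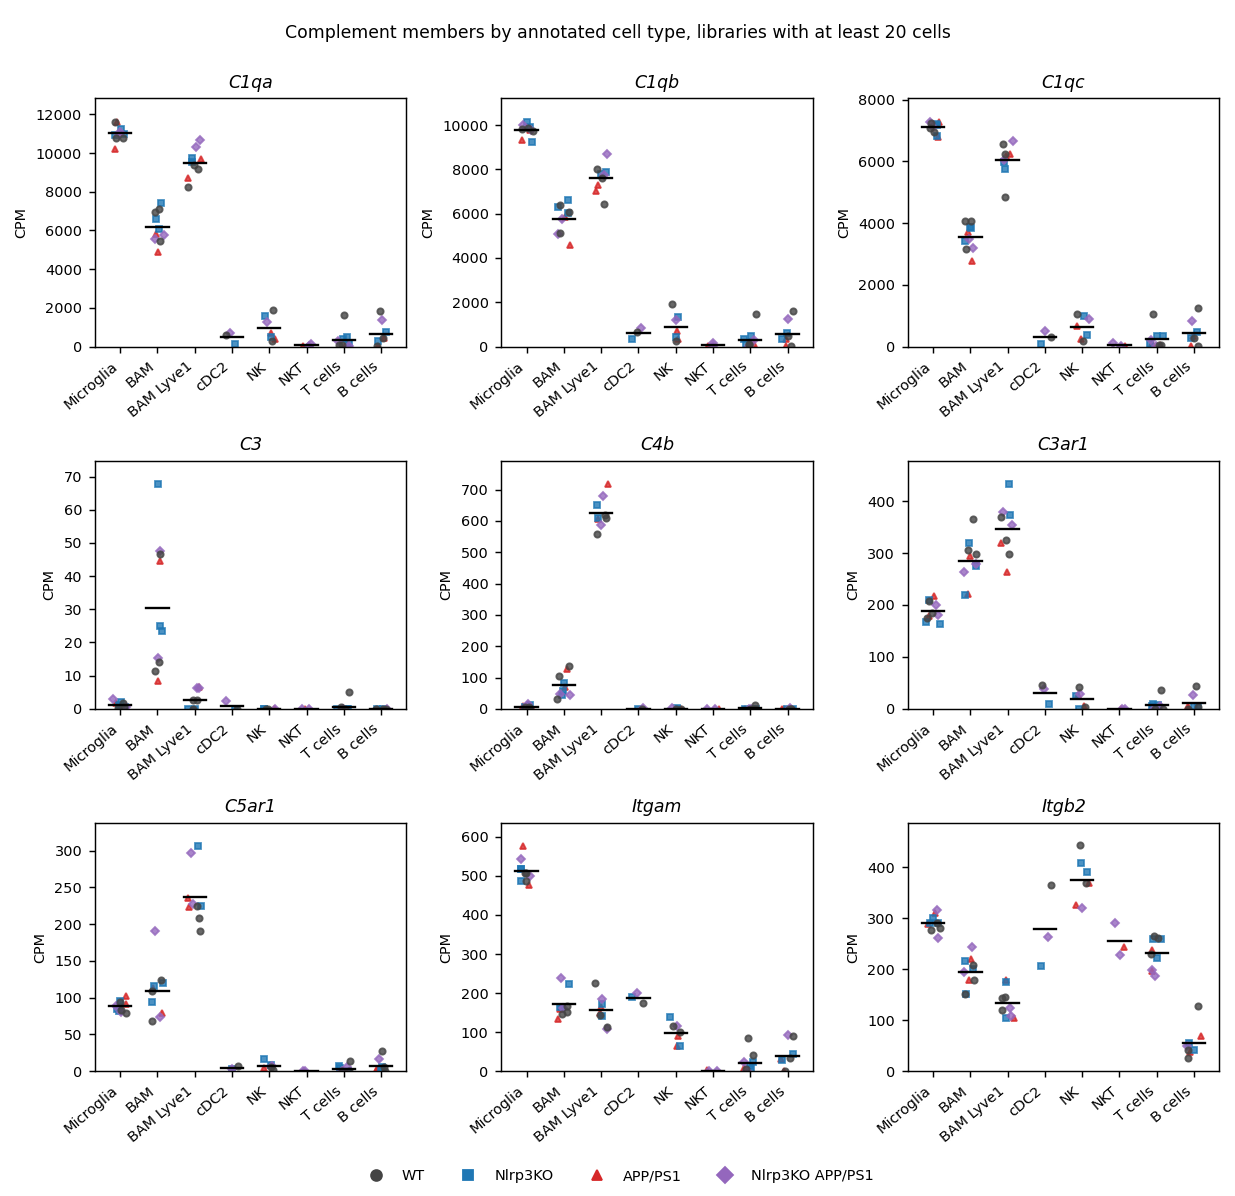
CPM of each of the 9 genes (linear axes from 0) by annotated cell type, with 1 point per library of at least 20 such cells and a bar at the mean. Among the types plotted, which have 3 or more such libraries, C1qa, C1qb and C1qc are highest in microglia, C4b in BAM Lyve1 (mean 626 CPM) and Itgam in microglia (mean 512 CPM), while Itgb2 is spread over nearly all of them.

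Every microglia held C1q RNA. All 40547 microglia had at least 1 UMI of each of the 3 chains, and after each cell was thinned to 1500 UMIs the shares were still 99.998% for C1qa, 100% for C1qb and 99.98% for C1qc. BAM Lyve1 came close, with 99.7% of 382 cells holding C1qa, and BAM held C1qa in 96.3% of 725 cells. T cells, which are not known to make C1q, held C1qa in 19.7% of 1598 cells (exact 95% interval 17.8% to 21.7%, median 5810 UMIs against 4506 in microglia), and B cells in 26.3% of 533 cells.

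Over all T, B and NK cells the 3 chains stood in the ratio seen in microglia. In T and NK cells of low doublet score the shares of C1qa and C1qb, pooled over libraries, differed from it by more than counting error. That of C1qc did not. The spread of these shares between libraries was not computed. Of the C1q UMIs in microglia, 39.2% were C1qa, 35.1% C1qb and 25.7% C1qc. In T cells the shares were 39.2%, 35.2% and 25.5%, in B cells 39.0%, 35.5% and 25.5%, and in NK cells 38.7%, 35.2% and 26.1%, all with intervals (exact binomial, counting error only) that held the microglial share. Over cells with a doublet score of at most 0.5, which held far fewer C1q UMIs, C1qb was the largest chain in T cells (38.1%, 35.5% to 40.8%, of 1293 C1q UMIs) and in NK cells (41.4%, 37.0% to 45.9%, of 495). C1qa was at 35.6% and 34.3%, and the intervals of both chains no longer held the microglial shares. Those of C1qc did (26.3%, 23.9% to 28.8%, in T cells and 24.2%, 20.5% to 28.3%, in NK cells). In B cells of low doublet score the intervals of all 3 chains held the microglial shares (C1qa 37.5%, C1qb 35.1% and C1qc 27.4% of 849). Macrophages had shares of their own, with 37.4% C1qb and 23.0% C1qc in BAM and 33.0% C1qb and 26.2% C1qc in BAM Lyve1. In cDC2 C1qb was the largest, at 45.1% (43.3% to 47.0%) against 34.5% C1qa and 20.4% C1qc.

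**Figure D2:**
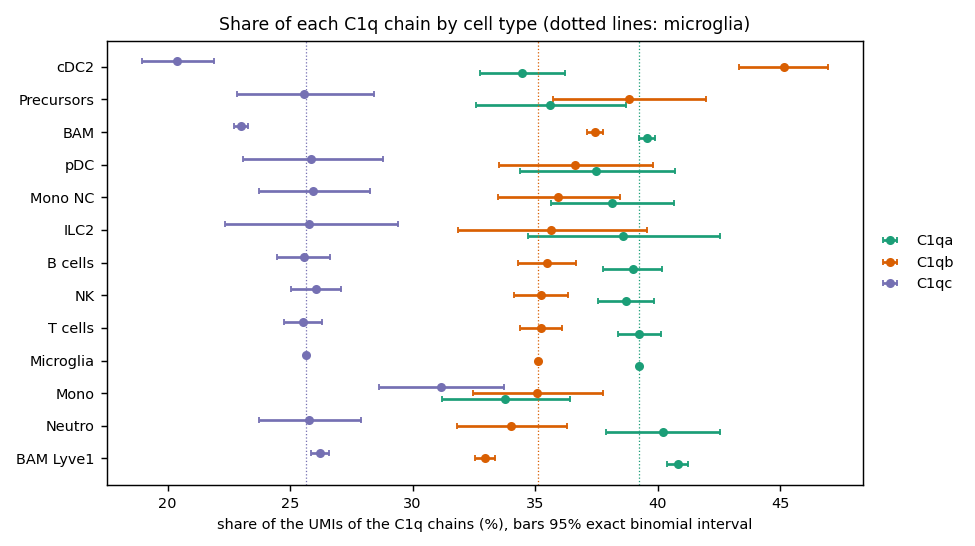
Share of C1qa, C1qb and C1qc in all C1q UMIs (percent) by cell type, with exact 95% binomial intervals and dotted lines at the microglial shares. With cells of all doublet scores included, T, B and NK cells lie on the microglial shares (39.2%, 35.1% and 25.7%), while cDC2 departs from them most for C1qb (45.1%).

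C1qa in T cells varied widely between libraries, from 17.8 CPM in Nlrp3KO APP/PS1 at 9 months to 1639 CPM in WT at 6 months, with a median of 150.1 CPM and a second highest value of 476 CPM. Summed over all T cells C1qa stood at 456 CPM, at 168 CPM without WT at 6 months, and at 49.7 CPM over cells with a doublet score of at most 0.5. Summed over all libraries T cells also held all 5 markers of microglia, with Sparc at 121 CPM and P2ry12 at 114 CPM. Their part in the C1q UMIs of T cells was not tested.

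Levels of C1q in microglia hardly differed between libraries. In WT microglia C1qa stood at 10797, 10767 and 11605 CPM at 3, 6 and 9 months, and in Nlrp3KO microglia at 10966, 11264 and 10917 CPM. In APP/PS1 microglia it was 10186 CPM at 3 and 11631 CPM at 9 months, and in Nlrp3KO APP/PS1 microglia 10912 and 11111 CPM. Values of the 4 genotypes overlapped, and both the lowest and the highest value came from APP/PS1 mice with intact Nlrp3. Over the 10 libraries C1qb ranged from 9220 to 10159 CPM and C1qc from 6802 to 7293 CPM.

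**Figure D3:**
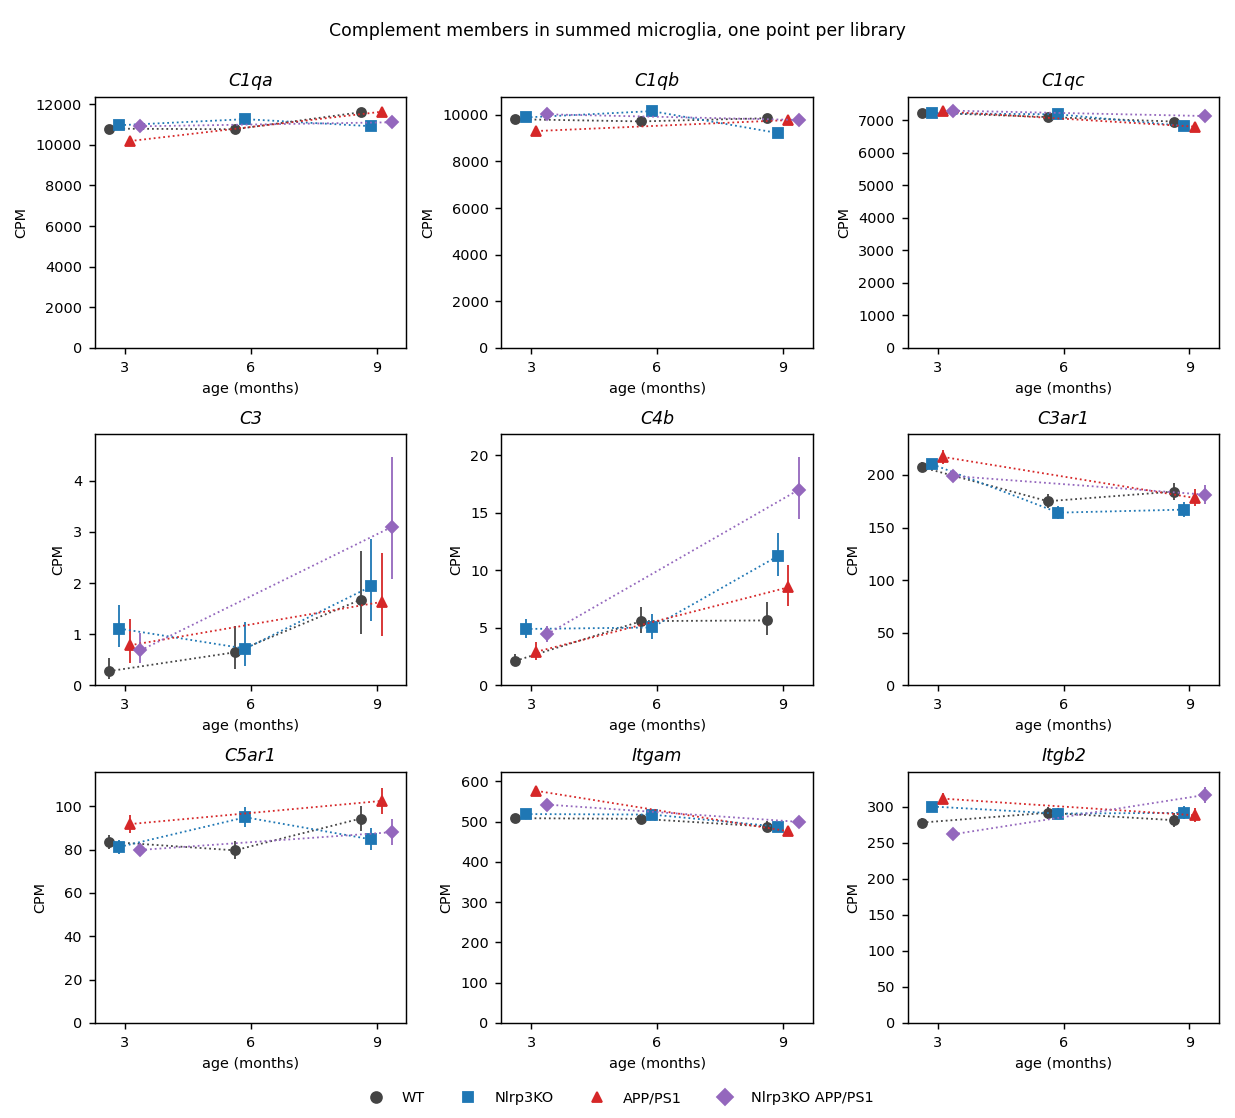
CPM of the 9 genes in summed microglia, 1 point per library, by genotype and age in months, with exact Poisson intervals for counting error and dotted lines that join libraries of a genotype. C4b runs from 2.13 CPM (WT, 3 months) to 17.0 CPM (Nlrp3KO APP/PS1, 9 months), whereas the C1q chains stay within a narrow band.

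The microglial states of the annotation were homeostatic microglia (HM), microglia transitioning toward disease-associated microglia (TM), disease-associated microglia (DAM), interferon-response microglia (IRM), proliferating microglia (PM) and a state with immediate-early genes (IEG). Their marker genes followed these names, with Cst7 at 1511 CPM in DAM against 12.9 in HM, Ifit3 at 387 CPM in IRM against 3.67, Mki67 at 522 CPM in PM against 0.157 and Atf3 at 136 CPM in IEG against 15.6. The study describes the immediate-early signature as a known response to dissociating tissue. The states were clustered on the same cells and genes, so differences between them are described without a test.

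C1qa and C1qb tended to be higher in DAM than in HM, and all 3 chains were lower in PM. In DAM C1qa averaged 13131 ± 2564 CPM against 10819 ± 356 in HM and was higher in 9 of 10 libraries, with the highest value (18718 CPM) in WT at 9 months. C1qb averaged 12016 ± 1596 CPM in DAM against 9517 ± 350 in HM and was higher in 10 of 10, whereas C1qc, at 7451 ± 553 against 7086 ± 187 CPM, was higher in 7 of 10. The mean log2 ratio of DAM over HM was 0.26 ± 0.25 for C1qa, 0.33 ± 0.19 for C1qb and 0.07 ± 0.12 for C1qc (SD, n = 10). PM was the state with the least C1q, with all 3 chains lower than in HM in 10 of 10 libraries (C1qa at 9332 ± 543 CPM).

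**Figure D4:**
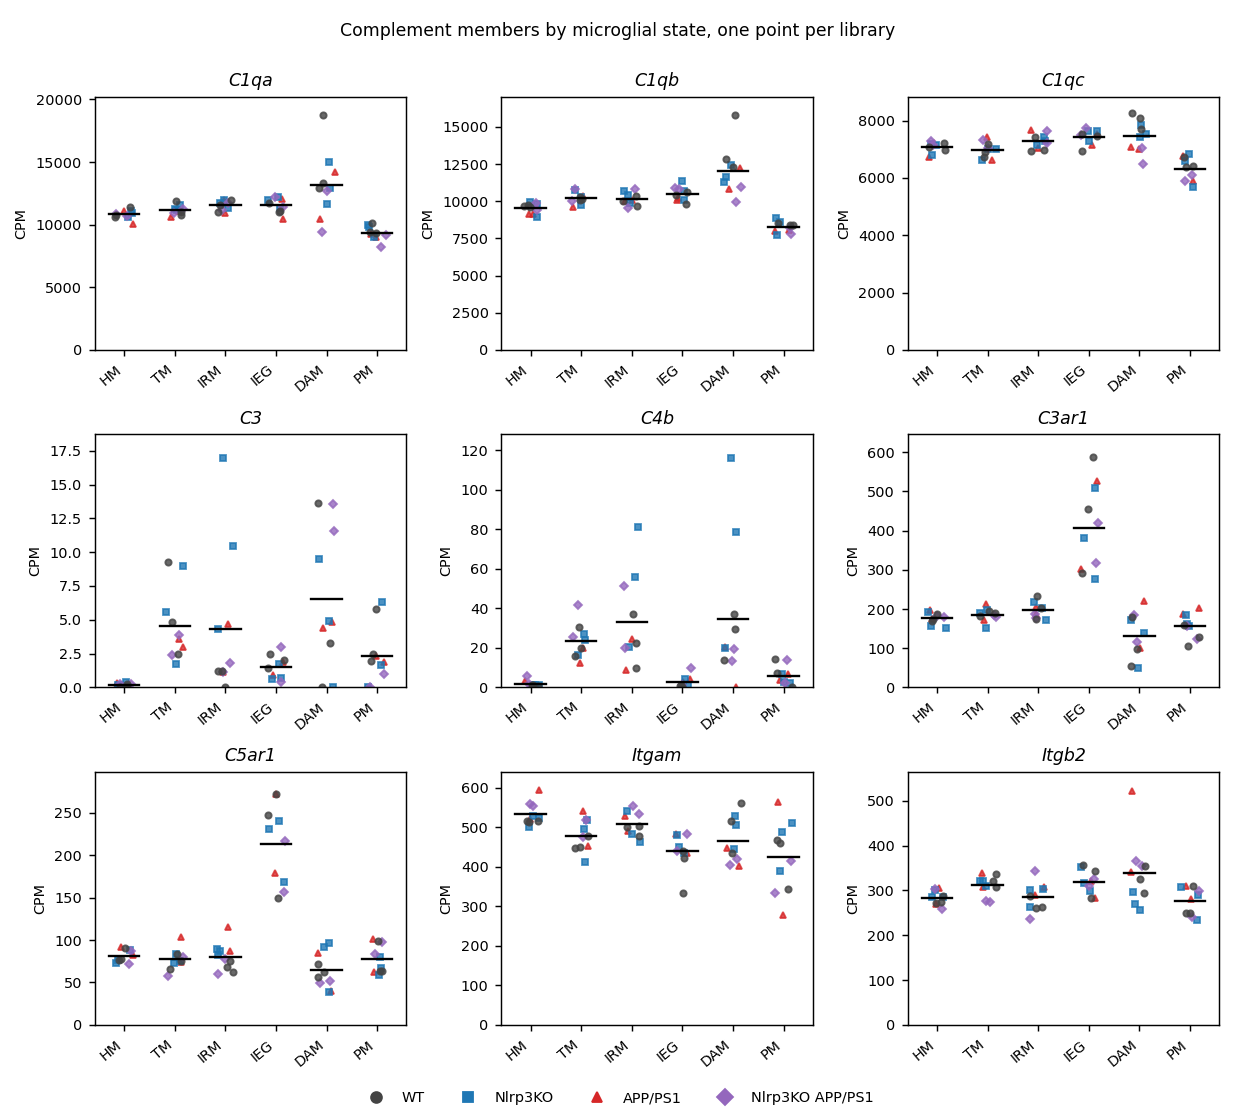
CPM of the 9 genes (linear axes from 0) by microglial state, with 1 point per library and a bar at the mean of 10 libraries. C4b and C3 stand higher in TM, IRM and DAM than in HM, and C3ar1 and C5ar1 stand highest in IEG (means of 407 and 213 CPM).

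C4b (chr17:34728139-34743902) was a gene of Lyve1-positive macrophages. It averaged 626 ± 49 CPM in BAM Lyve1 (n = 9), 74.9 ± 37.1 CPM in BAM (n = 10) and 6.74 ± 4.45 CPM in microglia (n = 10), with no overlap between the libraries of these types. BAM Lyve1 held C4b in 69.6% of cells, BAM in 14.6% and microglia in 1.59%, against 0.19% of T cells (0.039% to 0.55%). Thinned to 1500 UMIs the shares were 46.6%, 6.21% and 0.58%, with 0 of 1598 T cells.

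C4b RNA in microglia came from few cells and mostly from states other than HM. The 1066 UMIs lay in 643 of 40547 microglia, of which 452 held 1 UMI. HM, with 31953 cells, held 19.6% of these UMIs. A C4b UMI was seen in 0.58% of HM (0.50% to 0.67%), which lies within the interval for NK cells (0.11% to 1.59%) and above that for T cells (0.039% to 0.55%), but in 6.78% of TM, 7.0% of IRM and 8.66% of DAM. Mean levels were 1.79 ± 1.49 CPM in HM, 23.4 ± 8.44 in TM, 33.2 ± 23.2 in IRM and 34.8 ± 35.5 in DAM, and C4b was higher than in HM in 10 of 10 libraries for TM and IRM and in 9 of 10 for DAM. The order of TM, IRM and DAM could not be told from their spread.

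Microglia with a C4b UMI also differed in other genes. Apoe, a lipid carrier, stood at 4152 CPM in them against 922 CPM in microglia without one, Ifit3 at 146 against 25.3, Cst7 at 107 against 74.8, and Itgax at 14.8 against 7.13. Of the border macrophage markers, Mrc1 was higher in them, at 11.2 CPM against 5.81, as were Pf4 (2.73 against 1.45) and Ms4a7 (1.64 against 0.40). Cd163 and Lyve1 were at 0 UMIs in them and at 15 and 4 UMIs in the microglia without a C4b UMI. Of 5 astrocyte markers, Aqp4 and Gfap were at 0.026 and 0.036 CPM in all microglia, and the 5 summed to 175 to 219 CPM per library, nearly all of it Slc1a3 (200.4 CPM). C4b stood at 9.70 CPM in microglia with a doublet score over 0.5 and at 4.87 CPM in the others. The part of macrophage RNA or doublets in the C4b UMIs was not tested.

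C3 (chr17:57203967-57228136), the component on which all pathways converge, was scarce in microglia and stood highest in neutrophils, monocytes and cells labelled Precursors. Summed over all libraries it stood at 409 CPM in neutrophils, 307 in Mono, 216 in Precursors and 116 in Mono NC. Neutrophils, Mono and Mono NC each had 2 libraries of at least 20 such cells, and Precursors had 1. C3 was seen in 88.6% of 79 neutrophils and 84.6% of 149 Mono, or in 43.0% and 34.2% after thinning to 1500 UMIs, against 0.11% of microglia. BAM averaged 30.5 ± 19.9 CPM (n = 10), BAM Lyve1 2.72 ± 2.93 (n = 9) and microglia 1.26 ± 0.84 (n = 10), and the last of these steps was smaller than the SD. C3 was seen in 144 microglia (0.36%), which lies within the interval for B cells (0 of 533 cells, up to 0.69%), but in 3.33% of DAM (2.26% to 4.72%) and 1.93% of TM (1.43% to 2.54%). After thinning the shares were 1.11% of DAM (0.53% to 2.03%) and 0.55% of TM (0.30% to 0.92%), whose intervals overlap that of B cells (0 of 533, up to 0.69%) but not that of T cells (0 of 1598, up to 0.23%). Microglia with a C3 UMI held Apoe at 8495 CPM against 944 and Cst7 at 690 against 72.2. Of the border macrophage markers, Ms4a7 stood in them at 8.89 CPM against 0.383, Pf4 at 8.89 against 1.43 and Mrc1 at 10.9 against 5.88, while Cd163 and Lyve1 were at 0 UMIs. C3 stood at 2.59 CPM in microglia with a doublet score over 0.5, which held 33.0% of its UMIs, and at 0.767 CPM in the others. The part of macrophage RNA or doublets in the C3 UMIs was not tested.

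The receptors C3ar1 (chr6:122847140-122856157) and C5ar1 (chr7:16246743-16259540) were found in the same macrophages and in microglia, where they stood highest in the IEG state. C3ar1 averaged 346 ± 50 CPM in BAM Lyve1, 284 ± 44 in BAM and 188 ± 19 in microglia, against 31.5 ± 18.9 in cDC2 (n = 3). C5ar1 averaged 238 ± 39, 109 ± 35 and 88.1 ± 7.6 CPM, and the gap between BAM and microglia was smaller than the SD. Outside these types C5ar1 stood over all libraries at 141 CPM in neutrophils, above BAM (103 CPM), and at 69.0 CPM in Mono NC. Of all microglia, 51.9% held C3ar1 and 28.7% held C5ar1, against 3.32% and 2.19% of T cells, and 23.6% and 11.3% did so after thinning, against 0.75% and 0.38%.

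In IEG both receptors exceeded HM in every library. C3ar1 averaged 407 ± 110 CPM in IEG against 177 ± 15 in HM (mean log2 ratio 1.16 ± 0.32), and C5ar1 213 ± 47 against 81.6 ± 7.5 (1.35 ± 0.38), in 10 of 10 libraries each. The lowest IEG value of C3ar1 (278 CPM) exceeded the highest in the next state, IRM (233 CPM). Thinned to equal depth, 42.1% of IEG and 22.8% of HM held C3ar1, and 22.7% and 10.7% held C5ar1. C3ar1 is among the genes the study shows as marks of the IEG state, so its level there partly restates the annotation. The part of the dissociation response in the receptor levels of IEG was not tested.

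The bases before the start of C3ar1 (chr6:122856158-122856407, minus strand, RefSeq, GRCm38.p6) are printed because C3ar1 stood highest with the immediate-early genes. Capitals mark TGACTCA, the string that fits AP-1, the factor formed by Fos and Jun proteins.
C3ar1: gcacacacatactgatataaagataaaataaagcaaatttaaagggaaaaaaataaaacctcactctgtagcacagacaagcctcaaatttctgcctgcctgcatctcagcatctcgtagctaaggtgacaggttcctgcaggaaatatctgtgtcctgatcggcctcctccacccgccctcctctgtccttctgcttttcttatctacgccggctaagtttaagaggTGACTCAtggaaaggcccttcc
The match begins 22 bases before the start. TGACTCA was found in no other of the 6 windows and in 5.20% of all windows, and TATAAA in 2 of the 6 (C3ar1 and C3) and in 13.6% of all. The files hold no measure of binding, so these are descriptions of the letters.

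C3ar1 stood lower at 9 than at 3 months in DAM, as it did in all microglia and in HM, though age and batch cannot be told apart. At 3 months C3ar1 in DAM stood at 180 CPM in WT, 172 in Nlrp3KO, 219.7 in APP/PS1 and 184 in Nlrp3KO APP/PS1. At 9 months it stood at 54.7, 49.5, 99.4 and 117 CPM. All 4 libraries of 9 months lay below all 4 of 3 months, while at 6 months WT (98.9 CPM) lay within the range of 9 months and Nlrp3KO (139 CPM) between the sets. The values rest on 16 to 172 UMIs from 24 to 253 DAM. Ages did not overlap for 6.96% of the genes measured in DAM. The same held for 1 of the 9 members, C3ar1, a count near that share.

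Itgam (chr7:128062640-128118491), the alpha chain of CR3 also known as CD11b, was highest in microglia among the types with 3 or more libraries, whereas its partner Itgb2 (chr10:77530329-77565708), the beta chain CD18 shared with other integrins of leukocytes, was found in most CD45+ cells. Itgam averaged 512 ± 29.5 CPM in microglia, 188 ± 13 in cDC2, 171 ± 33 in BAM, 156 ± 36 in BAM Lyve1 and 98.2 ± 28.1 in NK cells, and stood at 563 CPM over all neutrophils and 412 CPM over Mono NC. Itgb2 averaged 375 ± 44 CPM in NK cells (n = 7), 291 ± 16 in microglia, 278 ± 80 in cDC2, 254 ± 33 in NKT cells and 232 ± 29.5 in T cells, and was lowest, among types with 3 or more libraries, in BAM Lyve1 (134 ± 29) and B cells (55.8 ± 31.8). From microglia to T cells in that order no step exceeded the larger SD. Mono NC held Itgb2 at 1011 CPM over all libraries, in 138 of 138 cells.

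The CR3 chains differed in their order over the states. Itgam was highest in HM (532 ± 28 CPM) and lower in TM (479 ± 40), IEG (440.2 ± 43.6) and PM (425 ± 89) in 10 of 10 libraries each. Itgb2 was higher in DAM (338 ± 75 CPM) than in HM (284 ± 16) in 8 of 10 libraries and higher in TM (312 ± 22) in 9 of 10. Itgam was also lower in DAM (467 ± 57 CPM) and Itgb2 higher in IEG (319 ± 26), in 8 of 10 libraries each. The differences from HM exceeded the larger SD for Itgam in TM, DAM, IEG and PM. For Itgb2 they did so in TM and IEG, but not in DAM.

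Whether amyloid pathology altered complement RNA in microglia was asked over 4 pairs, in which each APP/PS1 library was set against its non-diseased counterpart with equal age and Nlrp3 status. Of 12282 genes tested with the quasi-likelihood test of edgeR, 0.0407% were called (Benjamini-Hochberg adjusted p under 0.05 and more than 2-fold), and 0 of the 9 members were, with 1 (C4b) at an unadjusted p under 0.05. DESeq2 called 0 members too. The same direction in all 4 pairs was seen for 16.7% of genes and 0 of 9 members. For the C1q chains the log2 fold changes were 0.002 ± 0.068 for C1qa (SE; 95% interval -0.16 to 0.16), 0.02 ± 0.07 for C1qb (-0.14 to 0.18) and 0.03 ± 0.06 for C1qc (-0.12 to 0.18). For C3ar1 the log2 fold change was 0.03 ± 0.06, for C5ar1 0.09 ± 0.05, for Itgam 0.08 ± 0.05, for Itgb2 0.05 ± 0.07 and for C3 0.26 ± 0.35 (-0.56 to 1.08), so the interval of C3 held more than 2-fold changes and those of the others did not. Leaving out 1 pair gave 0.011 (without the WT and APP/PS1 pair of 3 months) to 0.67 (without the Nlrp3KO pair of 3 months) for C3, with 0.048 without the Nlrp3KO pair of 9 months.

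**Figure D5:**
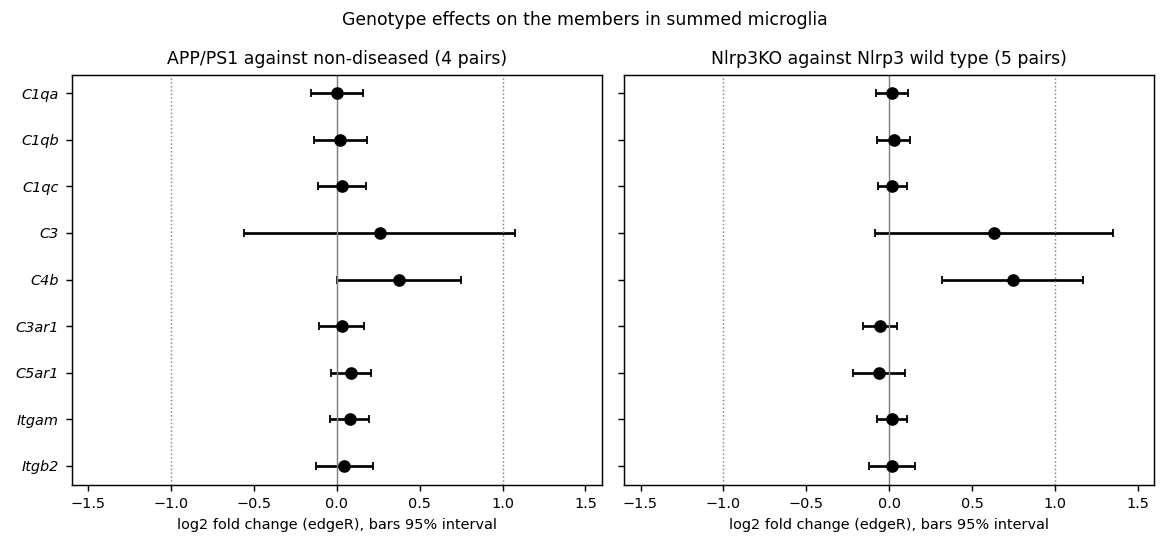
Log2 fold changes of the 9 genes in summed microglia with 95% intervals, for APP/PS1 against non-diseased libraries (4 pairs) and for Nlrp3KO against intact Nlrp3 (5 pairs). C4b has an interval above 0 in both, from 0.32 to 1.17 in the latter, but passed the adjusted threshold in neither.

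Of the 9 members C4b had the largest log2 fold change for APP/PS1 at 9 months, but it was not called. In microglia of 3 months it was 2.13 CPM in WT and 2.93 in APP/PS1, and 4.90 in Nlrp3KO and 4.44 in Nlrp3KO APP/PS1. In those of 9 months it was 5.64 in WT and 8.52 in APP/PS1, and 11.2 in Nlrp3KO and 17.0 in Nlrp3KO APP/PS1. APP/PS1 was higher in 3 of 4 pairs, with a log2 fold change of 0.37 ± 0.16 (0.0009 to 0.75, adjusted p = 0.665). The log2 fold change was 0.07 ± 0.18 at 3 months and 0.66 ± 0.18 at 9 months (adjusted p = 0.26), and the difference between ages was 0.59 ± 0.25 (-0.02 to 1.20, adjusted p = 0.88), or 0.22 without the Nlrp3KO pair of 3 months and up to 0.82 without the other pair of 3 months. For the effect at 9 months edgeR called 35 of the 12282 genes and DESeq2 53, and for that at 3 months 0 and 3, with 0 of the 9 members in each. For the difference between ages 0% of the 12282 genes and 0 of the 9 members were called by edgeR, with 601 genes and 0 members at an unadjusted p under 0.05 and 6 genes called by DESeq2. Without the Nlrp3KO pair of 9 months edgeR called 209 genes and without the other pair of 9 months 57, with 0 members in both.

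The states also differed in share, though not always in the direction of C4b. TM, IRM and DAM together made up 30.1% of microglia in APP/PS1 and 32.8% in Nlrp3KO APP/PS1 at 9 months, against 17.6% in WT and 15.4% in Nlrp3KO, and DAM alone 11.7% and 11.5% against 2.34% and 3.79%. At 3 months they made up 12.8% in Nlrp3KO APP/PS1 and 8.84% in Nlrp3KO, where C4b was lower in the former. In the other pair of 3 months they made up 13.9% in APP/PS1 and 7.65% in WT, where C4b was higher in the former. At 9 months Nlrp3KO had a smaller share than WT with more C4b. The 5 border macrophage markers summed to 14.0 CPM in Nlrp3KO APP/PS1 at 9 months and to 4.49 to 9.11 CPM in the other libraries. Monocyte markers summed to 19.0 CPM in APP/PS1 and 13.8 CPM in Nlrp3KO APP/PS1 at 9 months and to 5.75 to 11.1 CPM in the other 8 libraries. The part of any of these in the C4b levels was not tested. Within HM alone C4b stood at 3.06 CPM in APP/PS1 and 5.60 CPM in Nlrp3KO APP/PS1 at 9 months (18 and 25 UMIs), above the 0.73 to 1.65 CPM of the other 8 libraries. For how many of all genes these libraries lie above the others in HM was not counted. Of 11887 genes tested in HM, 0 were called for APP/PS1 at 9 months. The log2 fold change of C4b at 9 months within HM was 2.23 ± 0.39 (adjusted p = 0.48), and the difference between ages 2.27 ± 0.50 (adjusted p = 0.99). Over microglia with a doublet score of at most 0.5 the log2 fold change at 9 months was 1.32 ± 0.20 (adjusted p = 0.055). In Nlrp3KO at 9 months, 1 IRM cell with a doublet score over 0.5 held 27 of the 145 C4b UMIs, and without it that library stood at 9.14 CPM.

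Whether loss of Nlrp3 altered complement RNA was asked over 5 pairs of the same age and background. Here 0.0242% of 12383 genes and 0 of the 9 members were called by edgeR, with C4b alone at an unadjusted p under 0.05, and DESeq2 called 0 members. A shared direction in all 5 pairs was seen for 6.78% of genes and 0 of 9 members. C4b was higher in Nlrp3KO in 4 of 5 pairs, with 5.03 CPM in Nlrp3KO against 5.59 in WT at 6 months as the exception, and its log2 fold change was 0.75 ± 0.19 (0.32 to 1.17, adjusted p = 0.90). C3 had a log2 fold change of 0.63 ± 0.31 (-0.09 to 1.35), or 0.31 without the WT and Nlrp3KO pair of 3 months, and the other 7 members lay between -0.06 and 0.03, with intervals that all lay within -0.22 to 0.16. The Nlrp3 effect was also compared between the APP/PS1 and the non-diseased background, where 0% of 12383 genes and 0 of 9 members were called, with 310 genes and 0 members at an unadjusted p under 0.05 and 1 gene by DESeq2. The difference between backgrounds was 0.16 ± 0.41 (-0.80 to 1.13) for C4b and -0.20 ± 0.13 (-0.51 to 0.10) for C5ar1. Without the pair of 6 months these were -0.26 and -0.09, and without the APP/PS1 pair of 9 months C4b was at -0.0783.

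Age was compared as a description, since it coincides with the batch. In summed microglia 5 of the 9 members had libraries of 3 and 9 months that did not overlap (4 against 4), beside 32.2% of all genes. C1qc (7253 ± 35.4 against 6928 ± 150.2 CPM), C3ar1 (208 ± 7.5 against 178 ± 7.5) and Itgam (537 ± 30 against 488 ± 9.5) were lower at 9 months, and C4b (3.60 ± 1.29 against 10.6 ± 4.84) and C3 (0.71 ± 0.34 against 2.09 ± 0.69) were higher. Within HM the ages did not overlap for 2 of 9 members, C1qc and C3ar1, beside 26.4% of genes. C3ar1 in HM stood at 190.3 ± 6.11 CPM at 3 and 171 ± 10.2 CPM at 9 months.

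In the other macrophages (BAM, BAM Lyve1 and proliferating BAM, 1109 cells, 54 to 194 per library) C1qa and C1qb had lower values in APP/PS1 in every pair without passing the test. C1qa stood at 6538, 7200, 6699 and 6932 CPM in APP/PS1 and Nlrp3KO APP/PS1 at 3 months and then at 9 months, against 7887, 7304, 7286 and 7987 CPM in the matched non-diseased libraries. All 4 pairs had the lower value in APP/PS1. For C1qb the ranges of the groups overlapped (5616 to 6627 against 6164 to 6925 CPM). The log2 fold change was -0.20 ± 0.07 for C1qa (-0.35 to -0.05, adjusted p = 0.665), -0.18 ± 0.07 for C1qb (adjusted p = 0.76) and -0.12 ± 0.075 for C1qc. Of 6986 genes 0.0859% were called and 0 of 9 members by edgeR and by DESeq2, with 2 members (C1qa and C1qb) at an unadjusted p under 0.05 in edgeR. A shared direction in all 4 pairs was seen for 3 of 9 members (C1qa and C1qb lower, Itgb2 higher) and for 13.2% of genes.

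Values of BAM and BAM Lyve1 apart are given for C1qa alone and were not tested. In BAM C1qa was 4907 to 5842 CPM in the 4 APP/PS1 libraries and 6571 to 7427 CPM in the 4 matched ones. In BAM Lyve1 it was 8726 to 10680 and 8258 to 10293 CPM, from 13 to 69 cells a library, and the groups overlapped. For how many of all genes the groups stay apart in either type was not counted. The share of BAM Lyve1, the cells with more C1q, among the other macrophages was 29.3% in APP/PS1 against 36.7% in WT at 3 months but higher in APP/PS1 in the other 3 pairs (34.0% against 27.0%, 46.2% against 32% and 35.5% against 24.1%). Monocyte markers (4 genes summed) stood in the other macrophages at 1326 CPM in APP/PS1 against 708 in WT and at 1527 in Nlrp3KO APP/PS1 against 925 in Nlrp3KO at 3 months, and at 1095 against 681 and 974 against 1013 CPM at 9 months, higher in APP/PS1 in 3 of 4 pairs. The part of either in the C1q values was not tested.

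For Nlrp3 0.0523% of 7644 genes and 0 of 9 members were called in the other macrophages by edgeR and by DESeq2. Itgam was higher in Nlrp3KO in 5 of 5 pairs (log2 fold change 0.21 ± 0.12, adjusted p = 0.88), as 1 of the 9 members with a shared direction beside 6.66% of genes. C4b had a log2 fold change of -0.31 ± 0.13 (adjusted p = 0.85) with 3 of 5 pairs lower. In these 3 pairs the BAM Lyve1 share was lower in Nlrp3KO too (27.0% against 36.7% at 3 months, 24.1% against 32% at 9 months and 35.5% against 46.2% for APP/PS1 at 9 months), and within BAM Lyve1 C4b ran from 558 to 718 CPM over 9 libraries. The part of this share in the C4b values was not tested.

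Genes with the most similar pattern were sought over 17 cell types and states of at least 100 cells, among 5863 genes, by Pearson's r of log2(CPM + 1). C1qa was closest to C1qb (0.999) and C1qc (0.998), followed by Rab3il1 (0.983). C4b was closest to Folr2 (0.926), Adam33 (0.905) and Cp (0.893), and C3 to F10 (0.922), Ly6i (0.906) and Hp (0.902). C3ar1 was closest to Rab3il1 (0.977), Tlr4 and Sult1a1 (0.971 both), C5ar1 to Ly96 (0.952) and Adgre1 (0.949), Itgam to Lrp1 (0.978), then Il6ra and then Cask (0.969), and Itgb2 to Gsap (0.927). The sets share libraries, and states of microglia make up 6 of them, so these r are descriptions.

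Of 50 further complement genes listed by role, 49 were in the matrix and 19 of these had 0 UMIs in all microglia, among them 6 of 7 genes of the terminal pathway, 5 of 14 of initiation and 6 of 16 regulators. Among the listed genes with the highest levels in microglia were Calr, a chaperone that binds C1q (1044 ± 74 CPM), Lrp1, an endocytic receptor (352 ± 25), Cr1l, the rodent inhibitor known as Crry (136 ± 8), C5ar2, the second C5a receptor (84.2 ± 11.9), C1qbp (78.1 ± 15.2), Itgax, the alpha chain of complement receptor CR4 (8.41 ± 5.47), and Masp1, a protease of the lectin pathway (4.93 ± 1.89). Itgax stood at 2.75 ± 0.67 CPM in HM, 39.1 ± 29.5 in DAM and 43.0 ± 17.0 in IEG.

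None of the listed genes was called in microglia. For APP/PS1, 17 were tested, 0 were called by edgeR and 3 had an unadjusted p under 0.05, beside 918 of all 12282 genes, with a median log2 fold change of 0.09 against 0.003 for all genes and 0.05 for the 9 members. For its difference between ages 17 were tested, 0 were called and 3 had an unadjusted p under 0.05, beside 601 of 12282, with a median of 0.10 against 0.02. For Nlrp3, 18 were tested with 0 called and 0 at an unadjusted p under 0.05, beside 574 of 12383 (median 0.02 against 0.007), and for its difference between backgrounds 0 of 18 were called and 2 had an unadjusted p under 0.05, beside 310 of 12383. By role, 4 genes of initiation, 1 of the alternative pathway, 1 of the terminal pathway, 4 regulators and 7 receptors and binding proteins were tested for APP/PS1, and 0 of each were called.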

How the data were processed

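The authors sequenced RNA of sorted CD45+ brain cells with 3' droplet libraries (10x Genomics). They processed the reads with Cell Ranger on mm10, filtered cells with Scater, and annotated clusters with Seurat and harmony. The authors deposited raw UMI counts per gene and cell, and tables of cell labels whose columns the authors filled with the percent of mitochondrial UMIs and a doublet score, a fraction from 0 to 1 (its tool is not given in the sources used here). Cells of 2 sample names (6897 cells) matched no sample label and were not used.

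UMIs were summed per library and cell type or state and given as CPM, with means and SDs over libraries of at least 20 cells. Log2 ratios of a state over HM used a prior of 2 UMIs. Shares of cells have exact binomial intervals, and a count of 0 allows up to 3 counts, both covering counting error only. Thinning drew 1500 UMIs per cell. Genotypes were compared in summed microglia and in summed other macrophages with the pair as a block, filterByExpr, TMM and edgeR's quasi-likelihood test (version 4.0.16, R 4.3.3), with Benjamini-Hochberg adjustment over all genes tested and calls at an adjusted p under 0.05 and a log2 fold change over 1. All 9 members passed the filter in the fits of all microglia and of other macrophages, and 8 did in HM only, where C3 did not. DESeq2 1.42.0, DESeq2 size factors, total UMIs alone, no filter, HM only, a doublet score of at most 0.5, additive covariates and leaving out each pair were tried as alternatives, and leaving out WT at 6 months, the top C4b or C3 cell and, for the chain shares, cells with a doublet score over 0.5 were added after seeing the data. The pairs come from the labels of genotype and age, and each lies in 1 batch. Scripts were tested on simulated data. Named were all 9 members, the listed complement genes that were called or among the 8 highest in microglia, and the 3 genes most like each member. C4a was not analysed here, and values of some genes are not reported here. The members and lists were chosen with earlier results of these data known.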

Additional observations from a re-analysis of the deposited data

Results flagged for a closer look

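C1qc in the other macrophages of WT at 3 months stood at 4922 CPM, farther from the other 5 non-diseased libraries (4208 to 4324 CPM) than their spread gives at the 95% limit of Dixon's test. It was 1 of 36 groups of libraries tested, and chance alone flags about 1 in 20.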

How the results depend on the processing

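In 61 alternative computations over the 6 genotype comparisons the number of members called stayed at 0, and of 411 recomputed values 371 kept their direction and side of the threshold. Values near 0 in microglia changed sign. For APP/PS1 the log2 fold change of C1qa was -0.0156 with total UMIs alone, -0.0415 in HM only and -0.00011 at a doublet score of at most 0.5, that of C1qb was -0.0334 in HM only and that of Itgb2 was -0.0054 in HM only. Leaving out each pair in turn gave -0.0307 to 0.0386 for C1qa, -0.0244 to 0.0622 for C1qb, -0.0048 to 0.0468 for C1qc, -0.0217 to 0.0767 for C3ar1 and -0.0023 to 0.137 for Itgb2, and for Nlrp3KO it gave -0.0096 to 0.0401 for C1qa, -0.0044 to 0.031 for C1qc, -0.0091 to 0.0388 for Itgam and -0.025 to 0.0797 for Itgb2. The difference of the C4b effect of Nlrp3 between backgrounds ran from -0.26 (without the pair of 6 months) to 0.41, with -0.0783 without the APP/PS1 pair of 9 months. Leaving out 1 pair, C4b for APP/PS1 ran from 0.25 to 0.60 and for Nlrp3KO from 0.63 to 0.96, with no change of sign. The choice of cells moved C4b too. Its APP/PS1 effect at 9 months was larger in HM only and at a doublet score of at most 0.5, as given above. In the comparisons of effects a left-out pair can leave 1 pair in an arm, which is then assumed to vary like the others. The causes were not tested.

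Counts of all genes called moved by more than 1.5 times. For APP/PS1 in microglia 5 became 22 with DESeq2, 8 with total UMIs alone, 0 in HM only, and 0 to 11 without a pair. Its difference between ages went from 0 to 6 with DESeq2, 57 without the 9-month pair of intact Nlrp3 and 209 without that of Nlrp3KO. For Nlrp3KO 3 became 6 with DESeq2 and 2 to 8 without a pair. In the other macrophages 6 for APP/PS1 became 26 without a filter on low counts, 3 with DESeq2 and 2 to 10 without a pair, and 4 for Nlrp3KO became 27 without a filter and 3 to 7 without a pair. With 1 library per genotype and age, and 194 C3 UMIs in all microglia, small changes of C3 were not detectable at this depth.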
